A study of Homo sapiens with 16 samples.

Results

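The 9 genes described here carry the secretory and absorptive traffic of bile duct epithelium: CFTR, SLC4A2, KCNE3, AQP1, SLC10A2, SLC5A1, SLC6A20, GGT1 and SCTR. They were chosen by symbol as genes known for this work, with earlier results of these data known and no threshold on their values. Counts and medians of the members set beside those of all genes are therefore a description. All 9 were found among the 23340 genes of each of 3 tables. The cells were CCLP1, an established human cell line from a cholangiocarcinoma, a cancer of the bile ducts, and polyadenylated RNA was sequenced in 16 libraries, 2 for each of 8 groups. The study asked what PRH, the transcription factor encoded by HHEX, and the receptor NOTCH3 do to gene expression in these cells.

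In experiment 1, cells carried an shRNA against HHEX (PRH shRNA) or a scrambled control shRNA, with 2 separately grown clones for each shRNA, so each library is 1 clone. In experiment 2, cells without an shRNA were infected with an adenovirus expressing myc-tagged PRH (PRH virus) or with an empty adenovirus. In experiment 3, cells labelled NOTCH3 shRNA or control shRNA each received the PRH virus or the empty virus, with separate infections as replicates, called libraries A and B. All groups grew in the same serum-supplemented medium. Values are normalised counts, that is reads per gene divided by 1 size factor per library, and each experiment was scaled and tested on its own. Libraries held 20795552 to 69899040 reads in genes.

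Cholangiocytes, the cells that line bile ducts, modify bile by moving chloride, bicarbonate and water across the cell. Secretin binds its receptor (SCTR) and raises cAMP, which opens the apical chloride channel CFTR; chloride then returns through the anion exchanger AE2 (SLC4A2) in trade for bicarbonate. Water follows through aquaporin 1 (AQP1), and potassium channels with the regulatory subunit KCNE3 keep the driving force for chloride exit. The same cells take back bile acids through ASBT (SLC10A2), glucose through SGLT1 (SLC5A1) and amino acids, and the ectoenzyme GGT1 starts the breakdown of glutathione in bile, while SLC6A20 carries proline and other imino acids.

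The 250 bases upstream of the RefSeq start are shown for CFTR, KCNE3, SLC5A1 and SLC6A20, since these genes shared 1 order of the 4 clones in experiment 1 and were at or near 0 in control shRNA libraries of experiment 3. They are read 5′ to 3′ on the strand of the gene from the GRCh38.p14 build. Capitals mark TAAT, the core letters of many homeodomain sites, on either strand (ATTA on the strand shown).
CFTR, chr7:117479775-117480024, plus strand: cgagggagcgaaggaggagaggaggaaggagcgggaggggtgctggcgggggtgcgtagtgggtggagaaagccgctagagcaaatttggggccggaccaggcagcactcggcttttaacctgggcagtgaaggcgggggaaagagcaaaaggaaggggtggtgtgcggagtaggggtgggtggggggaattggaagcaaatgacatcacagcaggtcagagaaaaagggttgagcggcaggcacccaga
KCNE3, chr11:74467550-74467799, minus strand: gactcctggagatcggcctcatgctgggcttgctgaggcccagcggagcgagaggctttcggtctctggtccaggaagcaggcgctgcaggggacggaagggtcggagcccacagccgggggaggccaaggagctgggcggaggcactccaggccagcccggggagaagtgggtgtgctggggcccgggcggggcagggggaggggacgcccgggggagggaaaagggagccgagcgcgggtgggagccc
SLC5A1, chr22:32043011-32043260, plus strand: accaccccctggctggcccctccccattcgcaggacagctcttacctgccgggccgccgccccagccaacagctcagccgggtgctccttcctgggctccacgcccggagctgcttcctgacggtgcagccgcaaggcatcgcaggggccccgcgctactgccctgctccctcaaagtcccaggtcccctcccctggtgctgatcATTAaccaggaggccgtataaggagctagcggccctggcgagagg
SLC6A20, chr3:45796537-45796786, minus strand: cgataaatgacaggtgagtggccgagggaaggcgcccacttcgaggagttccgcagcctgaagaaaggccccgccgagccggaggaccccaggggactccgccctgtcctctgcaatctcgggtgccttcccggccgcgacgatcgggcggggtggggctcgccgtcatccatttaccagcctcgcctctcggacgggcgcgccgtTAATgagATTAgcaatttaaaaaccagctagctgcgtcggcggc
TAAT occurred 2 times upstream of SLC6A20, 1 time upstream of SLC5A1 and 0 times upstream of CFTR and KCNE3, and 47.4% of 35116 RefSeq promoter windows of the same length held it. The GC content of these windows was 61.2% for CFTR, 73.2% for KCNE3, 68.8% for SLC5A1 and 64.8% for SLC6A20, against a median of 58% over all windows.

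The libraries of experiment 3 stood apart by shRNA label far beyond the targeted gene. NOTCH3 averaged 836 ± 257 normalised counts in empty-virus libraries labelled NOTCH3 shRNA and 775 ± 90.0 in empty-virus control shRNA libraries (SD, n = 2 each), which is not lower. With the PRH virus it averaged 923 ± 229.5 in libraries labelled NOTCH3 shRNA and 2392 ± 137 in control shRNA libraries. The cholangiocyte keratin KRT19 averaged 57566 ± 8763 in libraries labelled NOTCH3 shRNA and 33.4 ± 31.2 in control shRNA libraries, both with the empty virus, and the epithelial adhesion molecule EPCAM averaged 31148 ± 4390 and 21.3 ± 9.86 in the same groups. Keratin KRT7 was at 0 in both empty-virus control shRNA libraries. Cells without an shRNA that received the empty virus had 24.1 ± 17.6 KRT19 and 19.2 ± 8.91 EPCAM counts, so KRT19 and EPCAM were nearly absent from the control cells of experiments 2 and 3. SOX9, a transcription factor of bile duct epithelium, was present: it averaged 36310 ± 1693 in empty-virus libraries labelled NOTCH3 shRNA, 14043 ± 738 in empty-virus control shRNA libraries and 2738 ± 369 in empty-virus cells without an shRNA. HHEX averaged 320 ± 8.36 in PRH shRNA clones and 567 ± 18.2 in control clones, a difference that was not called (log2 fold change -0.82, limma adjusted p 0.99986). The PRH virus raised HHEX to 85981 ± 22642 in cells without an shRNA, against 365 ± 81.6 with the empty virus. In experiment 3 the 2 arms differed in HHEX. With the PRH virus it averaged 59243 ± 17914 in libraries labelled NOTCH3 shRNA and 279700 ± 71730 in control shRNA libraries (log2 fold change -2.25, limma adjusted p 3.61e-05), and with the empty virus 198 ± 15.6 and 664 ± 72.3 (-1.74, limma adjusted p 0.000126). Its part in the member differences by shRNA label, and in their interaction with the virus, was not tested. Reads from the virus and from the cell's own HHEX gene cannot be told apart.

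In libraries labelled NOTCH3 shRNA, the chloride channel, the potassium channel subunit, the imino acid carrier, the glucose carrier and the glutathione enzyme were all far above control shRNA libraries, while the anion exchanger and aquaporin 1 were lower. With the empty virus, limma (adjusted p under 0.05) called 7 of the 7 members tested, 5 higher and 2 lower, where 51.9% of 15836 genes were called, 28.9% higher and 23.1% lower. The median log2 fold change of the 7 was 7.55, or 6.18 with the 3 members that had no reads in control libraries set at their lower bound, against 0.04 for all genes tested. CFTR, KCNE3, SLC5A1 and SLC6A20 reached the level needed for a test through libraries labelled NOTCH3 shRNA alone, so a difference by label was built into their being tested, and this count and median are a description. SLC10A2 and SCTR were not tested, having no reads. With the PRH virus in both arms, 6 of 7 were called, 5 higher and 1 lower, where 47.2% of all genes were called, 26.1% higher and 21.1% lower. Values of the groups did not overlap upward in 40.1% and downward in 35.7% of all genes tested with the empty virus, and in 38.9% and 35.1% with the PRH virus. These p-values rest on 2 libraries per group of a single cell line, fitted in 1 model of 8 libraries that share 1 estimate of the spread. That spread is between separate infections and is not shown to cover separately made shRNA cells. In such bulk samples, fewer cells of a type and less RNA per cell cannot be told apart.

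**Figure D1:**
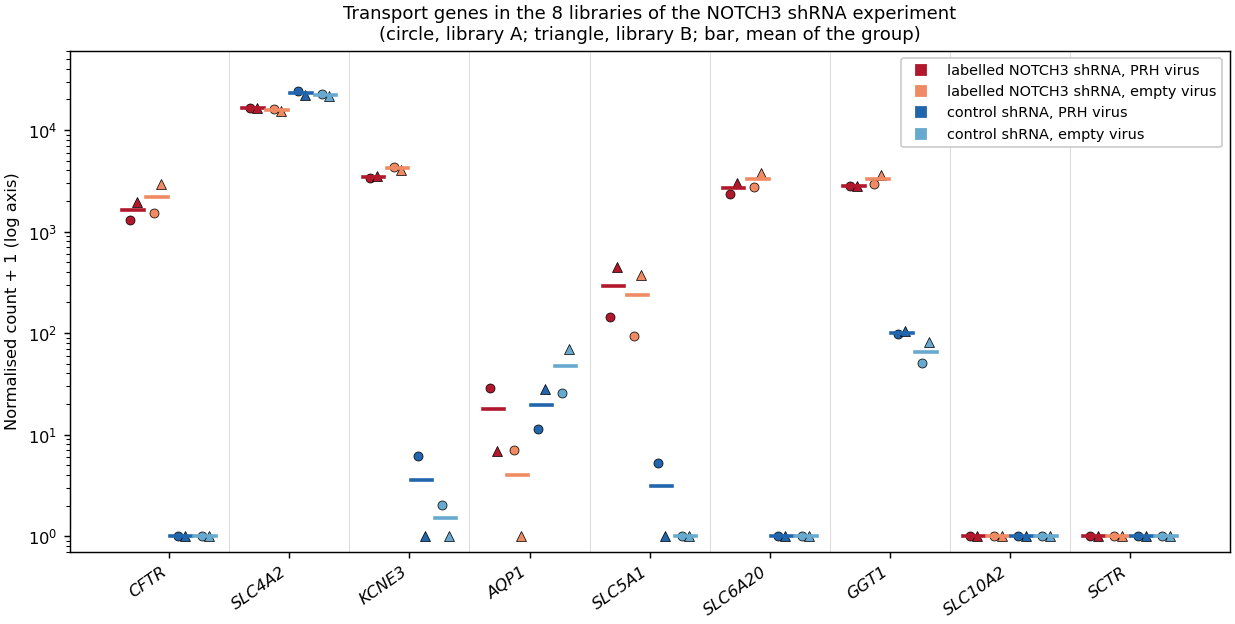
Normalised count plus 1 (log axis) of the 9 transport genes in each of the 8 libraries of experiment 3, with the groups side by side for each gene and bars at group means. CFTR and SLC6A20 lie at 1307 to 3806 in libraries labelled NOTCH3 shRNA and at 0 in control shRNA libraries, SLC4A2 lies at 15348 or higher everywhere, and SLC10A2 and SCTR lie at 0.

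CFTR, the channel through which chloride leaves the cell, had 1516 and 2906 normalised counts in empty-virus libraries labelled NOTCH3 shRNA, against 0 and 0 in empty-virus control shRNA libraries. Under the PRH virus it had 1307 and 1938 counts in libraries labelled NOTCH3 shRNA, against 0 and 0 in control shRNA libraries. Every library labelled NOTCH3 shRNA held CFTR reads and no control shRNA library held any. Against a floor of 3 counts per library, CFTR was at least 683-fold higher with the empty virus and at least 595-fold higher with the PRH virus; this bound covers counting error only. The limma adjusted p was 6.38e-07 with the empty virus and 1.33e-06 with the PRH virus.

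KCNE3, the subunit that holds basolateral potassium channels open, had 4297 and 4084 normalised counts in empty-virus libraries labelled NOTCH3 shRNA, against 1.02 and 0 in control shRNA libraries. The control value is 1 read in all. The ratio of depth-scaled reads was 7820, with an exact 95% counting interval of 1403 to 308907, and the limma adjusted p was 2.65e-06. With the PRH virus, KCNE3 had 3393 and 3488 counts in libraries labelled NOTCH3 shRNA, against 5.11 and 0 in control shRNA libraries (limma adjusted p 7.69e-06). The groups did not overlap under either virus.

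SLC4A2, the chloride and bicarbonate exchanger, moved the other way and by little. It had 16118 and 15348 normalised counts in empty-virus libraries labelled NOTCH3 shRNA, against 22827 and 21617 in control shRNA libraries. Under the PRH virus it had 16367 and 16468 counts, against 23977 and 22316 in control shRNA libraries. The 4 libraries labelled NOTCH3 shRNA all lay below the 4 control shRNA libraries. The log2 fold change was -0.50 ± 0.08 (SE) with the empty virus and -0.49 ± 0.08 with the PRH virus (limma adjusted p 0.000672 and 0.000897). SLC4A2 was the most abundant member per kilobase of merged exon in every group, at 2731 normalised counts per kilobase in libraries labelled NOTCH3 shRNA and 3857 in empty-virus control shRNA libraries.

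AQP1, the water channel, was low throughout. It had 6.02 and 0 normalised counts in empty-virus libraries labelled NOTCH3 shRNA, against 24.6 and 69.0 in control shRNA libraries, a log2 fold change of -4.00 ± 1.18 (limma adjusted p 0.0178). That call rested on 7 reads against 85 and was lost with edgeR (adjusted p 0.0557), without library B labelled NOTCH3 shRNA (-2.59, limma adjusted p 0.110) and without control library B (-3.27, limma adjusted p 0.131). With the PRH virus, AQP1 had 27.9 and 5.86 counts in libraries labelled NOTCH3 shRNA, against 10.2 and 27.0 in control shRNA libraries, and these groups overlapped (-0.33, limma adjusted p 0.838). The difference between the 2 log2 fold changes was 3.66 with a 95% interval of -0.09 to 7.42 (limma interaction, adjusted p 0.229).

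Among the absorptive carriers, SLC6A20, which takes up proline, had 2769 and 3806 normalised counts in empty-virus libraries labelled NOTCH3 shRNA, against 0 and 0 in control shRNA libraries. Under the PRH virus it had 2318 and 3024 counts, against 0 and 0. It was at least 1016-fold higher with the empty virus and at least 980-fold higher with the PRH virus (limma adjusted p 2.26e-07 and 3.81e-07). SLC5A1, the sodium-driven glucose carrier, had 92.9 and 375 counts in empty-virus libraries labelled NOTCH3 shRNA, against 0 and 0 in control shRNA libraries, at least 72.3-fold higher (limma adjusted p 0.000256). SLC5A1 under the PRH virus had 142 and 442 counts, against 4.26 and 0, a ratio of 119 with a counting interval of 50.8 to 369. Under both viruses library B labelled NOTCH3 shRNA held the higher SLC5A1, SLC6A20 and CFTR values.

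GGT1, which cleaves glutathione outside the cell, was the one strongly raised member that control shRNA cells also expressed. It had 2951 and 3622 normalised counts in empty-virus libraries labelled NOTCH3 shRNA, against 49.2 and 80.3 in control shRNA libraries, a ratio of means of 50.7 and a log2 fold change of 5.68 ± 0.26. Given the PRH virus, GGT1 had 2812 and 2839 counts, against 96.2 and 103, a ratio of means of 28.3 and a log2 fold change of 4.81 ± 0.26 (limma adjusted p 3.36e-07 and 1.36e-06 in the 2 comparisons). GGT1 has near-identical copies that can share its reads; GGT3P, GGTLC1, GGTLC2 and GGT8P, the copies listed, held at most 5.22 counts in any library, so how the counting divided shared reads is uncertain. Per kilobase, the order in empty-virus libraries labelled NOTCH3 shRNA was SLC4A2 (2731), KCNE3 (1230), GGT1 (1007), SLC6A20 (606), CFTR (352), SLC5A1 (44.7) and AQP1 (0.903); in empty-virus control shRNA libraries it was SLC4A2 (3857), GGT1 (19.8), AQP1 (14.0) and KCNE3 (0.150), with the other 5 at 0.

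SLC10A2, the bile acid carrier, and SCTR, the secretin receptor, had 0 reads in all 16 libraries. A count of 0 allows up to 3 counts per library, which is 2.19 to 4.34 normalised counts at these depths, so levels below that were not detectable. The receptor of vasoactive intestinal peptide (VIPR1), which also raises cAMP, averaged 1487 ± 300 normalised counts in empty-virus libraries labelled NOTCH3 shRNA, against 10.2 ± 1.57 in control shRNA libraries (log2 fold change 7.05, limma adjusted p 3.17e-07).

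**Figure D2:**
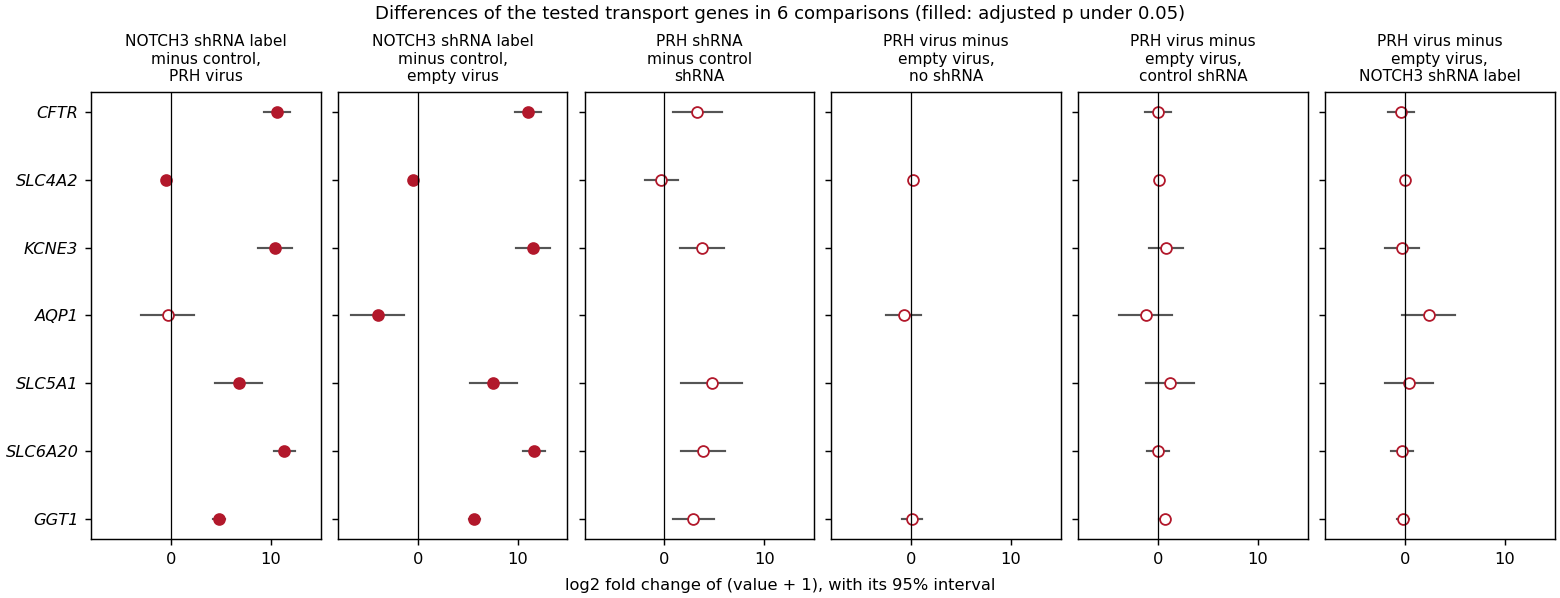
Log2 fold change of value plus 1 for the tested members in 6 comparisons, with 95% intervals; filled points passed an adjusted p under 0.05 (limma). Filled points appear in the 2 comparisons by NOTCH3 shRNA label, from -4.00 for AQP1 to 11.66 for SLC6A20 with the empty virus, and in no comparison of PRH.

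Other transport genes were grouped in 6 lists, and the list counts are of genes with a limma adjusted p under 0.05. Of all genes tested with the empty virus, 28.9% were higher and 23.1% lower by that rule. With the empty virus, the sodium, potassium and proton list had 9 of 15 tested genes higher and 1 lower in libraries labelled NOTCH3 shRNA than in control shRNA libraries, with a median log2 fold change of 2.90. SCNN1A, the alpha subunit of the epithelial sodium channel, averaged 7718 ± 903 normalised counts in libraries labelled NOTCH3 shRNA and 11.9 ± 2.35 in control shRNA libraries (limma adjusted p 2.25e-08). ATP1B1, a subunit of the sodium pump, averaged 8391 ± 29.7 and 1490.5 ± 145 in those groups. KCNN4, a calcium-activated potassium channel, was lower, at 420.1 ± 183 in libraries labelled NOTCH3 shRNA against 1870.1 ± 9.12 in control shRNA libraries.

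The chloride and bicarbonate list had 6 of 16 higher and 3 lower (median 0.54). SLC12A2, the cotransporter that loads epithelial cells with chloride, was higher at 33890 ± 2368 in libraries labelled NOTCH3 shRNA, against 5273 ± 160 in control shRNA libraries (log2 fold change 2.68, limma adjusted p 9.25e-08). SLC12A7, a potassium-chloride cotransporter, averaged 8103 ± 1047 in libraries labelled NOTCH3 shRNA, against 169 ± 87.1 in control shRNA libraries. The sodium bicarbonate cotransporters SLC4A4 and SLC4A7 were lower by log2 fold changes of -2.58 and -0.94. In the carbonic anhydrase and aquaporin list 4 of 7 were higher and 0 lower (median 2.72). CA2, the cytosolic anhydrase that makes bicarbonate, averaged 1461 ± 670 in libraries labelled NOTCH3 shRNA and was at 0 in both control shRNA libraries, and the membrane-bound CA12 averaged 399 ± 56.2 against 14.0 ± 0.54.

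The bile acid list had 4 of 7 higher and 0 lower (median 1.63), among them the transporter SLCO4A1 (log2 fold change 1.63) and GPBAR1, a membrane receptor for bile acids (2.69; 58.8 ± 29.7 against 7.95 ± 3.25 counts). The list of glutathione breakdown, amino acid and glucose carriers had 10 of 17 higher and 1 lower (median 0.80). The glucose carrier SLC2A1 rose to 25489 ± 314 counts in libraries labelled NOTCH3 shRNA, against 824 ± 81.2 in control shRNA libraries, and the glutamate carrier SLC1A1 to 3420 ± 545 against 240.7 ± 38.9. GGT7, a relative of GGT1, was lower (184 ± 56.4 against 517 ± 14.1). The signalling list had 10 of 22 higher and 5 lower (median 0.45), with the inositol trisphosphate receptor ITPR3 higher (log2 fold change 2.99), and the receptor ITPR1 and the cAMP phosphodiesterase PDE4A lower by log2 fold changes of -2.57 and -1.70.

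With the PRH virus in both arms, the lists had 6 higher and 4 lower of 16 for chloride and bicarbonate, 8 and 2 of 15 for sodium, potassium and protons, 4 and 1 of 7 for carbonic anhydrases and aquaporins, 1 and 0 of 7 for bile acids, 5 and 4 of 17 for glutathione and carriers and 9 and 5 of 22 for signalling. Their median log2 fold changes were -0.19, 0.55, 1.47, -0.07, 0.23 and 0.21, against 0.04 for all genes tested, of which 26.1% were higher and 21.1% lower. SCNN1A, SLC12A2, CA2, SLC2A1 and VIPR1 were again higher, with log2 fold changes of 8.51, 2.72, 6.33, 3.61 and 4.63. The apical sodium-proton exchanger SLC9A3 was lower in libraries labelled NOTCH3 shRNA (2476 ± 465) than in control shRNA libraries (5920 ± 1709).

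**Figure D3:**
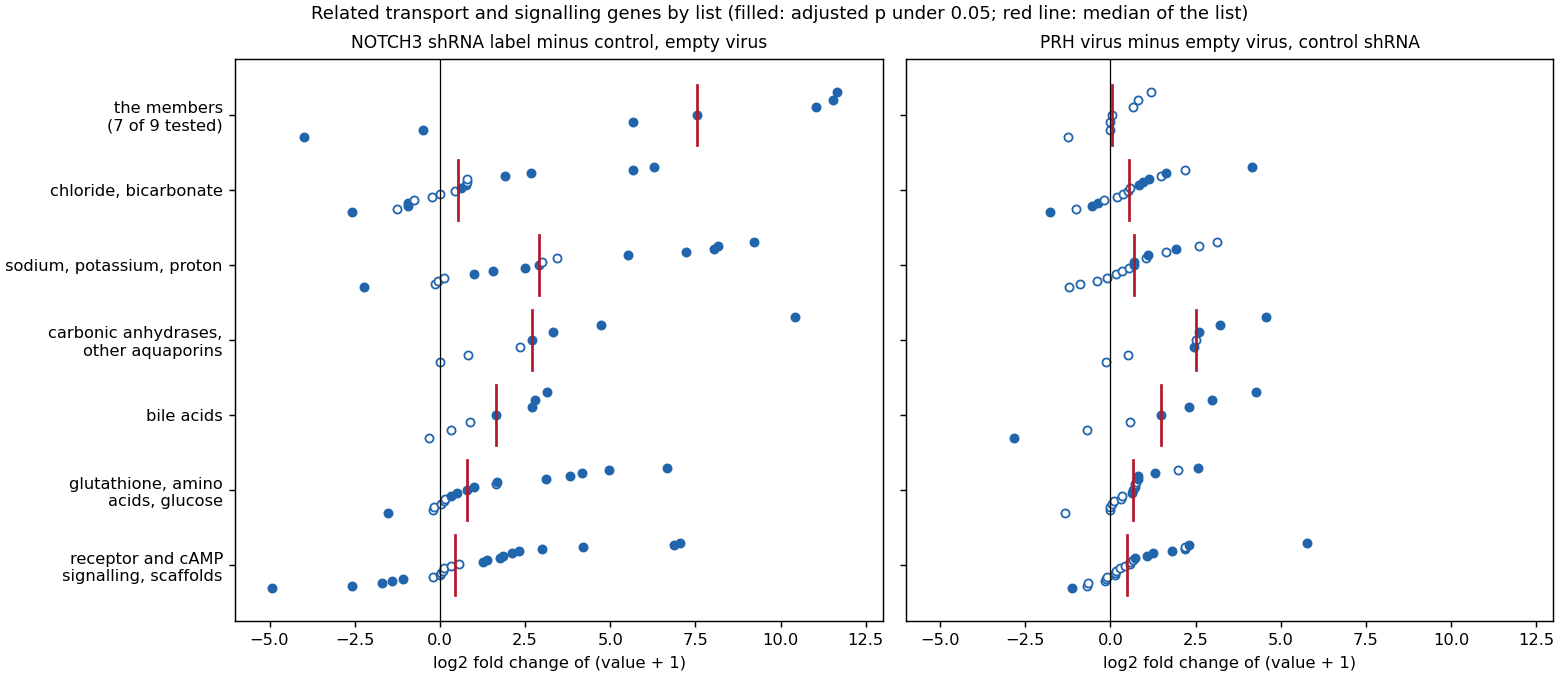
Log2 fold change of value plus 1 for each tested gene of 6 related lists and of the members; filled points passed an adjusted p under 0.05 (limma) and red lines mark list medians. In the comparison by NOTCH3 shRNA label the members have a median of 7.55 and the sodium, potassium and proton list one of 2.90; in the comparison by PRH virus in control shRNA cells CFTR and SLC6A20 sit at exactly 0 because no library there held a read.

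Summed markers of several cell types also differed by shRNA label, some upward and others downward. Within the hepatocyte, fibroblast and leukocyte lists, single markers moved both ways. Of 12 cholangiocyte markers, 11 were tested and 10 were called higher with the empty virus, where 28.9% of all genes were. The summed level of the cholangiocyte markers was 149766 to 154532 normalised counts in libraries labelled NOTCH3 shRNA, against 17598 to 18139 in control shRNA libraries. The summed hepatocyte markers were at 1187 to 1266 against 82.0 to 107 in the same groups. Albumin (ALB) went the other way, at 0 in both libraries labelled NOTCH3 shRNA against 70.7 to 91.7 in control shRNA libraries. Of 5 hepatocyte markers tested, 2 were called higher and 1 lower. The summed fibroblast markers were at 47199 to 49844 against 108961 to 132082. Of 6 fibroblast markers tested, 2 were called higher and 2 lower, and COL1A1 averaged 770 ± 19.3 against 209 ± 79.0. The endothelial markers were at 211 to 278 against 0 to 7.17, most of it VWF (205 ± 71.7 against 0). The leukocyte markers were at 999 to 1384 against 4196 to 6402, with PTPRC at 5.70 to 24.1 against 0 to 3.39. Of 4 leukocyte markers tested, 1 was called higher and 1 lower. The part of these markers in the member differences was not tested.

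Over the 8 libraries of experiment 3, the genes with the most similar log2 pattern to CFTR were CYP39A1 and PIWIL1, and to SLC6A20 TC2N and TDGF1 (Pearson r 0.9998 to 0.9999). For KCNE3 they were ALDH3A1 and LOC100130899, for GGT1 MYRIP and CLDN7, for SLC5A1 ST6GALNAC1, and for SLC4A2 BRD9 and GRB2 (r 0.9961 to 0.9995). These are descriptions over libraries that share 2 shRNA labels, and 411 to 1627 genes had an r over 0.95 with each member, the lowest number for SLC4A2.

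Experiment 1 asked whether lowering PRH changes the same genes. In each PRH shRNA clone, CFTR, KCNE3, SLC6A20, SLC5A1 and GGT1 were above both control clones, but clones of a group differed too, by up to 3.78-fold among PRH shRNA clones (KCNE3) and 13.8-fold among control clones (SLC5A1). No member passed limma's adjusted p: of 6 members tested 0 were called, where 0% of 14511 genes were called, and 5 had an unadjusted p under 0.05, where 6.61% of all genes did. By edgeR 0 members passed and by DESeq2 5 did, where DESeq2 called 4.84% of all genes. Without PRH clone 1, limma called 5 members and 5.38% of all genes. It called 1 member (SLC5A1) both without PRH clone 2, beside 1.28% of all genes, and without control clone 1, beside 1.08%, and it called 0 members and 0.221% of all genes without control clone 2. With 1 clone left in a group, the spread in these fits comes from the 2 clones of the other group, and the lone library is assumed to vary likewise. The median log2 fold change of the 6 was 3.54, against -0.07 for all genes tested, and for any gene tested the PRH shRNA clones lay above the control clones without overlap in 12.3% of cases. SLC5A1 reached the level needed for a test only with the PRH shRNA clones, as control clone 2 had 1.91 counts. Counts and medians that include it are a description.

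CFTR had 282 and 918 normalised counts in PRH shRNA clones 1 and 2, against 103 and 24.8 in control clones 1 and 2 (log2 fold change 3.30, limma adjusted p 0.404). KCNE3 had 477 and 1807 counts in PRH shRNA clones, against 109 and 41.0 in control clones (3.77, limma adjusted p 0.322). SLC6A20 had 120 and 418 counts, against 21.2 and 10.5 in control clones (3.82, limma adjusted p 0.322). In these 3 channel and carrier genes PRH shRNA clone 2 was highest and control clone 2 lowest. SLC5A1 had 153 and 352 counts in PRH shRNA clones, against 26.3 and 1.91 in control clones (4.71, limma adjusted p 0.347). GGT1 had 177 and 585 counts in PRH shRNA clones, against 31.5 and 58.2 in control clones (2.88, limma adjusted p 0.391). SLC5A1 shared the order of the first 3 genes, and in GGT1 the control clones stood the other way round.

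SLC4A2 and AQP1 did not separate the groups of experiment 1. SLC4A2 had 5952 and 12787 normalised counts in PRH shRNA clones, against 6228 and 18507 in control clones, with a log2 fold change of -0.30 and a 95% interval of -1.97 to 1.37. AQP1 had 8.68 and 8.91 counts in PRH shRNA clones, against 8.05 and 12.4 in control clones, and was too low to be tested. The summed cholangiocyte markers were at 20275 to 57052 in PRH shRNA clones, against 9653 to 12168 in control clones, and KRT19 averaged 10040 ± 8945 against 546 ± 153; their part in the member values was not tested. Of the 69 genes tested in the 6 related lists, 0 passed limma. An unadjusted limma p under 0.05 was found for 10 of them, where 6.61% of all genes had one.

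**Figure D4:**
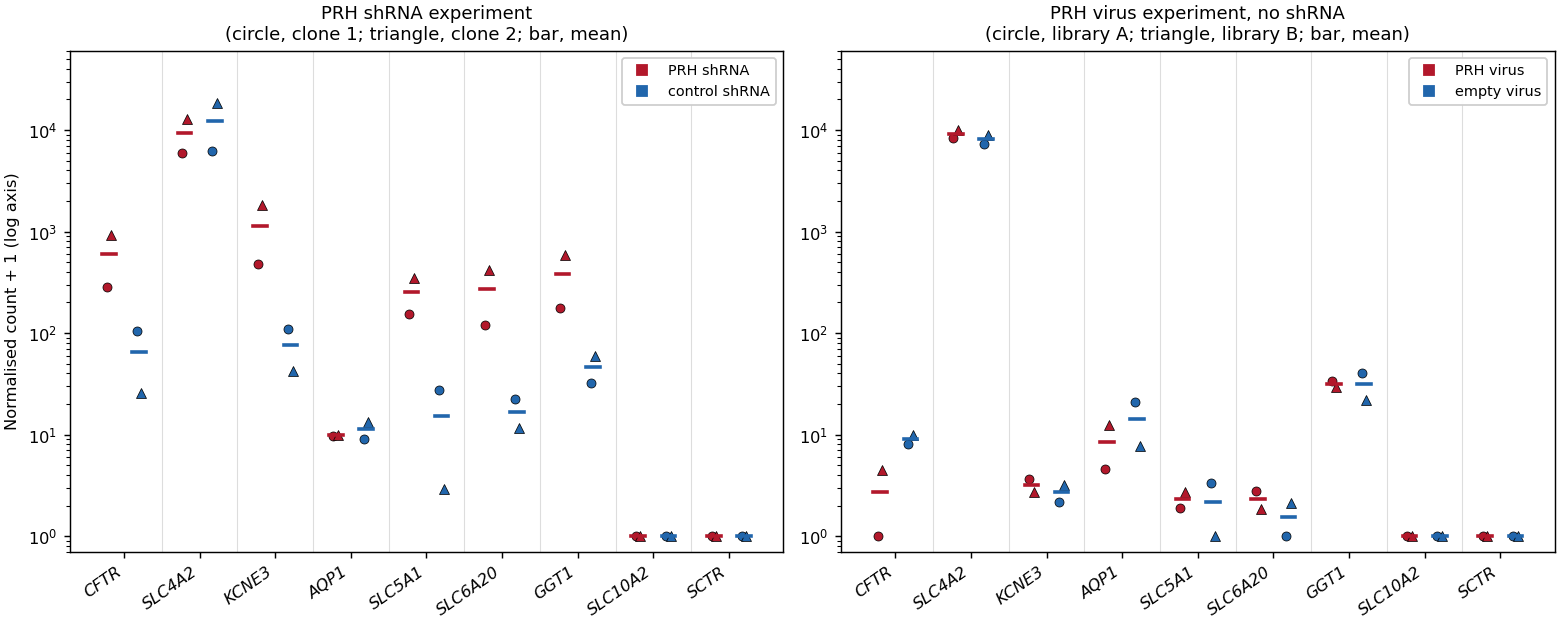
Normalised count plus 1 (log axis) of the 9 transport genes in the 4 libraries of experiment 1 (left) and experiment 2 (right), with bars at group means. On the left CFTR lies at 282 and 918 in PRH shRNA clones and at 103 and 24.8 in control clones; on the right CFTR, KCNE3, SLC5A1 and SLC6A20 lie below 10 in all 4 libraries.

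Experiments 2 and 3 asked the converse, whether extra PRH changes them. In cells without an shRNA, 4 of the 5 genes that were high in PRH shRNA clones were near 0 under either virus. CFTR had 0 and 3.47 normalised counts with the PRH virus, against 7.02 and 8.86 with the empty virus, and KCNE3 had 2.66 and 1.74 against 1.17 and 2.22. SLC6A20 had 1.77 and 0.868 counts with the PRH virus, against 0 and 1.11 with the empty virus, and SLC5A1 had 0.886 and 1.74 against 2.34 and 0. For these genes the ratio of reads had wide counting intervals, 0.0528 to 0.701 for CFTR and 0.250 to 8.27 for KCNE3. The CFTR interval, from 4 reads against 14, lay wholly below an equal level and covers counting error only. All 4 genes were too low to be tested. The summed cholangiocyte markers were at 3594 to 3611 with the PRH virus, against 4252 to 4795 with the empty virus.

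Of the 3 members tested in experiment 2, limma, edgeR and DESeq2 each called 0. Limma called 15.6% of 13263 genes, edgeR 2070 genes and DESeq2 2290. By limma 0 members had an unadjusted p under 0.05, where 30.8% of all genes did. SLC4A2 had 8281 and 9968 normalised counts with the PRH virus, against 7363 and 8841 with the empty virus, with a log2 fold change of 0.17 and a 95% interval of -0.16 to 0.50. GGT1 had 32.8 and 28.7 counts with the PRH virus, against 39.8 and 21.0 with the empty virus (0.08, interval -0.91 to 1.07). AQP1 had 3.55 and 11.3 counts, against 19.9 and 6.65 (-0.76, interval -2.53 to 1.02). The groups overlapped for each of the 3.

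In control shRNA cells, limma called no member for the PRH virus against the empty virus, and 27% of 15836 genes. Of the 7 members in that fit, CFTR and SLC6A20 had 0 reads in all 4 libraries, SLC5A1 had 5 reads with the PRH virus against 0 with the empty virus and KCNE3 had 6 against 1. These 4 were in the fit only through libraries labelled NOTCH3 shRNA, so the count is not read against the share of all genes. SLC4A2 had 23977 and 22316 normalised counts with the PRH virus, against 22827 and 21617 with the empty virus (log2 fold change 0.06, 95% interval -0.12 to 0.24). AQP1 had 10.2 and 27.0 counts, against 24.6 and 69.0 (-1.26, interval -3.91 to 1.40). For both genes the groups overlapped. GGT1 had an unadjusted p under 0.05, as 38.1% of all genes did: its 96.2 and 103 counts with the PRH virus lay above the 49.2 and 80.3 with the empty virus, as the groups did without overlap in 33.6% of all genes tested (log2 fold change 0.66 ± 0.26, limma adjusted p 0.0906). DESeq2 called it (adjusted p 0.0383), with 30.4% of all genes, and edgeR did not, and limma called it without the empty virus library B (adjusted p 0.0247). Without the PRH virus library B the log2 fold change of KCNE3 was 2.10, from 5.11 counts against 1.02 and 0.

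In cells labelled NOTCH3 shRNA, limma, edgeR and DESeq2 each called 0 of 7 members for the PRH virus against the empty virus. Limma called 2.21% of 15836 genes, edgeR 403 genes and DESeq2 1096. By limma 0 members had an unadjusted p under 0.05, where 17.3% of all genes did. CFTR had 1307 and 1938 normalised counts with the PRH virus, against 1516 and 2906 with the empty virus (log2 fold change -0.40, 95% interval -1.67 to 0.87). KCNE3 and GGT1 were lower in both PRH virus libraries than in both empty virus libraries, by log2 fold changes of -0.28 (interval -2.01 to 1.44) and -0.21 (interval -0.79 to 0.37), which did not pass the test; such separation downward was seen in 23.6% of all genes tested. The interaction of virus and shRNA label was called for 0 of 7 members by limma, where 8.39% of genes were called, and for CFTR and SLC6A20, with no reads in control shRNA cells, it repeats the value in cells labelled NOTCH3 shRNA. Only GGT1 had an unadjusted p under 0.05, as 22.9% of all genes did (-0.87, limma adjusted p 0.191). DESeq2 called it (adjusted p 0.0443), with 14% of all genes, and edgeR did not.

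Related genes did move with the PRH virus. SLC9A3 averaged 2356 ± 657 normalised counts with the PRH virus and 784 ± 155 with the empty virus in cells without an shRNA (log2 fold change 1.57, limma adjusted p 0.00666), and 5920 ± 1709 against 1532 ± 297 in control shRNA cells (1.93, limma adjusted p 0.000449). The receptor ITPR3 and the apical scaffold SLC9A3R1 were also higher with the PRH virus in both settings, with log2 fold changes of 1.11 and 1.07 in cells without an shRNA and of 2.18 and 1.07 in control shRNA cells. SLC4A4 and the receptor ITPR2 were lower in both, with log2 fold changes of -1.10 and -0.63 in cells without an shRNA and of -1.76 and -1.13 in control shRNA cells. In control shRNA cells the PRH virus list counts were 5 higher and 3 lower of 16 for chloride and bicarbonate, 4 and 0 of 15 for sodium, potassium and protons, 4 and 0 of 7 for carbonic anhydrases and aquaporins, 4 and 1 of 7 for bile acids, 7 and 0 of 17 for glutathione and carriers and 7 and 1 of 22 for signalling. Their median log2 fold changes were 0.53, 0.70, 2.52, 1.48, 0.67 and 0.50, against 0 for all genes tested, of which 15.2% were higher and 11.8% lower. In cells without an shRNA, 17 of the 62 list genes tested were higher and 5 lower, where 9.9% of all genes were higher and 5.73% lower. In cells labelled NOTCH3 shRNA 3 of the 84 list genes tested passed, where 2.21% of all genes did. SLC12A2 (-0.49) and the cystine carrier SLC7A11 (-0.85) were lower with the PRH virus and PDE4A (1.13) was higher. The interaction passed for 24 of the 84 list genes tested, 3 positive and 21 negative, where it was positive in 3.48% and negative in 4.91% of all genes tested. Among them were SLC12A7 (-4.29), ITPR3 (-2.70) and SLC2A1 (-1.34), whose log2 fold change with the PRH virus was lower in cells labelled NOTCH3 shRNA than in control shRNA cells, and SLC4A4 (2.11), where it was higher (limma adjusted p 0.000553 to 0.00503).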

How the data were processed

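The study sequenced polyadenylated RNA from CCLP1 cells, and the 16 libraries came as 3 tables. Per the submitters' processing notes, Trim Galore, TopHat, featureCounts and DESeq2 were used with the hg19 build; their versions and the use of strand are not stated. The deposited values are a signal: each is a gene's count over a size factor of its library (0.691 to 1.37). In every library 100% of values were whole multiples of 1 step (tolerance 1e-06), so whole reads were recovered for the count tests and the ratios of reads. Scaling was done per table, so groups were compared only inside a table. Of 23368 lines, 28 with a date in place of a symbol (0.208% to 0.276% of the reads) were dropped, leaving 23340 genes. The names A and B carry no pairing, since those columns have no replicate number. The empty virus columns of experiment 2 are named for GFP. No 2 libraries of a group agreed within counting noise (chi-square over degrees of freedom, 19.5 to 669).

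Groups were tested with limma 3.58.1, run in R 4.3.3, after taking log2 of the value plus a pseudocount of 1, with an intensity trend, for genes that reached 10 normalised counts in 2 or more libraries of the table; an adjusted p under 0.05 (Benjamini-Hochberg over all genes tested) was called. Experiment 3 was fitted in 1 model of 8 libraries. A fold change on this scale understates the change of low genes, and a fitted fold of a gene with a group at 0 depends on the pseudocount and is no bound. edgeR 4.0.16 and DESeq2 1.42.0 on the recovered counts, another pseudocount (5), equal library totals, no filter, no trend, and leaving out each library were alternatives. The fit was tested on simulated data. A count of 0 was given a floor of 3 counts per library, and such floors and intervals cover counting error only, because without molecular identifiers reads need not be separate molecules. Lengths are merged exons of GENCODE 29 on GRCh38, another annotation than the authors used, and no hg19 position is printed. In that annotation KCNE3 overlaps an antisense gene, SLC4A2 overlaps CDK5 and an antisense gene, and AQP1 a readthrough gene; without strand their reads cannot be told apart. The 9 members and the lists (6 of related genes, 5 of cell type markers) were chosen with earlier results of these data known. Named genes are the members, HHEX, NOTCH3, up to 2 list genes per direction and comparison with the smallest p among those past the threshold, and the 2 genes most like each member; defining markers were added as checks of the cells. Some genes that this rule names are not reported here.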

Additional observations from a re-analysis of the deposited data

How the results depend on the processing

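Over all alternatives run, 488 values for single members gave 449 with the same direction and call, 16 that newly passed the threshold, 3 that lost it, all 3 for AQP1, and 20 of the opposite sign, none of these called in either fit. Leaving out 1 library moved the log2 fold change over -1.08 to 0.49 for SLC4A2 with PRH shRNA and over -0.37 to 0.52 for GGT1 with the PRH virus in cells without an shRNA. It ran over -0.51 to 2.10 for KCNE3 in control shRNA cells, over -0.87 to 0.070 for CFTR and -0.58 to 1.42 for SLC5A1 in cells labelled NOTCH3 shRNA, and over -1.37 to 0.70 for AQP1 by shRNA label under the PRH virus. The interaction ran over -0.87 to 0.070 for CFTR, -0.048 to 0.055 for SLC4A2 (-0.027 with equal library totals), -2.39 to 0.22 for KCNE3 and -1.97 to 0.42 for SLC5A1. In experiment 1 limma called 0 genes, DESeq2 called 703 genes and 5 members, and leaving out 1 clone gave 32 to 781 genes and 0 to 5 members. A fit with the clone number as a replicate block called 10 genes and 0 members. The numbers name separate clones, so they are not taken as pairs. Even so, deviations from the group means correlated between clones of the same number (Pearson r 0.582 over 14511 genes). No paired analysis was possible because the columns of experiments 2 and 3 carry no replicate number. For the PRH virus in cells without an shRNA, 2073 genes were called, 758 without the intensity trend and 1314 to 2101 on leaving out 1 library. In control shRNA cells 4282 genes were called, 2730 without the trend, 2560 when the 4 libraries were fitted alone (chosen after seeing the data), and 2208 to 2891 without 1 library; members called were 0, 1 with DESeq2, and 0 to 1 without 1 library. In cells labelled NOTCH3 shRNA 350 genes were called, 82 without the trend, 1096 with DESeq2, 1 when fitted alone, and 1 to 376 without 1 library. The interaction was called for 1329 genes, 351 without the trend, 2212 and 1 member with DESeq2, and 499 to 1155 without 1 library. The cause of these shifts was not tested. In fits with a library left out or with 1 shRNA, genes at 0 in every remaining library have no variance, and limma offsets it from 0. With equal library totals, higher calls for the PRH virus in control shRNA cells made up 70.0%, against 56.3% with the deposited scaling, and the median of all genes for PRH shRNA moved to 0.03, against -0.07. In the settings that kept 2 libraries per group, the member differences by NOTCH3 shRNA label were called each time except for AQP1. CFTR, KCNE3, SLC5A1 and SLC6A20 were tested through libraries labelled NOTCH3 shRNA alone, so their repeated calls are a description.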

Other observations

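GGT6, another gamma-glutamyltransferase of the carrier list, was higher beside GGT1 in experiment 3 and was chosen after its values were seen. It averaged 185 ± 78.3 normalised counts in empty-virus libraries labelled NOTCH3 shRNA and 1.02 ± 1.45 in empty-virus control shRNA libraries (SD, n = 2 each, log2 fold change 6.67). GGT6 had at most 7.66 counts in any control shRNA library of experiment 3. It was thus tested through libraries labelled NOTCH3 shRNA alone, and its difference by label is a description. It averaged 21.9 ± 16.6 in PRH shRNA clones and 1.69 ± 0.31 in control clones. GGT5 had at most 14.5 counts in any library. VIPR1 averaged 384 ± 383 counts in PRH shRNA clones and 29.6 ± 10.8 in control clones, and 3.08 ± 0.67 with the PRH virus and 1.69 ± 0.74 with the empty virus in cells without an shRNA.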
